A study of Mus musculus with 8 samples.

Results

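The Ms4a membrane protein family was described across the cell types of mouse liver, in control mice and in mice with diet-induced steatohepatitis (NASH) and fibrosis. The members were the 10 rows of the gene table with the symbols Ms4a1, Ms4a2, Ms4a4a, Ms4a4b, Ms4a4c, Ms4a6b, Ms4a6c, Ms4a6d, Ms4a7 and Ms4a8a, out of 55450 genes in all and 19 rows whose symbol begins with Ms4a. They were chosen by measured values, with their levels across cell types and their differences between groups in view, so their levels and fold changes are a description and carry no test. Single liver cells were profiled in 8 droplet libraries, 1 per mouse, from 3 mice of the HFD+F+CCl4 model, 3 of the WD+F+CCl4 model and 2 controls. All were wild-type C57BL/6 mice, and their age was not found in the labels or methods. Control mice received normal diet and drinking water. HFD+F+CCl4 mice received a high-fat diet and WD+F+CCl4 mice a western diet, and both models also received a fructose solution and weekly intraperitoneal carbon tetrachloride, a liver toxin, for 16 weeks. Diet, fructose and carbon tetrachloride were always given together, so their parts in a difference from control cannot be told apart. The livers were dissociated with collagenase IV, papain and DNase I, and the libraries were made with a 3′ kit, so levels are not compared between genes.

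Ms4a proteins cross the cell membrane several times with both ends inside the cell, and many sit beside immune receptors and tune their signals. Ms4a1 is CD20, the surface protein of B cells that therapeutic antibodies target, and Ms4a2 is the beta chain of the high-affinity IgE receptor of mast cells and basophils. Ms4a4b is a T cell member, whereas the Ms4a4a, Ms4a6 and Ms4a7 proteins are known from monocytes and macrophages, the cells that enter or expand in the injured liver.

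All 10 members lay in a single gene cluster of mouse chromosome 19 (GRCm38), in which the 19 Ms4a genes spanned 678.6 kb, from base 10962293 to base 11640851. On the minus strand were Ms4a8a (chr19:11067471-11081102), Ms4a1 (chr19:11249675-11266241), Ms4a7 (chr19:11321039-11336146), Ms4a6d (chr19:11586604-11604849) and Ms4a2 (chr19:11615523-11623719). On the plus strand were Ms4a4a (chr19:11375523-11392790), Ms4a4c (chr19:11404770-11427246), Ms4a4b (chr19:11443553-11467055), Ms4a6c (chr19:11469366-11482192) and Ms4a6b (chr19:11516512-11531256). The order along the chromosome followed the cell types in which the genes were measured only in part. Ms4a7, Ms4a4a, Ms4a4c, Ms4a6c, Ms4a6b and Ms4a6d, measured in myeloid classes, lay in a run of members that Ms4a4b interrupted. Ms4a8a, also measured in myeloid classes, lay apart from this run, beyond Ms4a1. Ms4a4b, the T cell member, lay 2310 bases from Ms4a6c, a monocyte member, and between Ms4a6c and Ms4a4c. Ms4a1, Ms4a4c, Ms4a6c and Ms4a6b overlap a gene on the other strand (4930526L06Rik, Gm5692, BE692007 and Gm19261), and the labels and methods do not say whether the authors counted by strand.

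RefSeq promoter windows (GRCm38.p6) were matched by symbol for 8 of the 10 members. Ms4a1 and Ms4a6d have no entry. Of 35 pairs of windows from different members, compared over the 250 bases before the start, 2 pairs aligned over long stretches, and the other pairs aligned over 8 to 31 columns. These 2 pairs are shown because they join neighbouring members that were measured in different or partly different cells. The RefSeq starts of Ms4a4c and Ms4a6b lie inside the annotated spans given above. Capitals mark the aligned stretch, and each sequence reads 5′ to 3′ on the plus strand, from chr19:11443308-11443557 (Ms4a4b), chr19:11407411-11407660 (Ms4a4c), chr19:11518309-11518558 (Ms4a6b) and chr19:11469118-11469367 (Ms4a6c).
Ms4a4b: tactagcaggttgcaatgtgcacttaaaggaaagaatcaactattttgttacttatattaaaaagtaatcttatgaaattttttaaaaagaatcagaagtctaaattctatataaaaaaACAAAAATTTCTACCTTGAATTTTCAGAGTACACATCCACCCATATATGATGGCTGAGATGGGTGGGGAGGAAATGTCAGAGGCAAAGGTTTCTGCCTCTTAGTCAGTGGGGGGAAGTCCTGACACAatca
Ms4a4c: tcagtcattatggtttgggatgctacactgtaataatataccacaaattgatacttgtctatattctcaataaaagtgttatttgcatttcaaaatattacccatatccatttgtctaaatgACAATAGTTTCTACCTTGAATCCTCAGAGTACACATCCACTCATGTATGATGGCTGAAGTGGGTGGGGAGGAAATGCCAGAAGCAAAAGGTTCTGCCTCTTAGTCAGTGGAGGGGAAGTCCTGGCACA
Ms4a6b: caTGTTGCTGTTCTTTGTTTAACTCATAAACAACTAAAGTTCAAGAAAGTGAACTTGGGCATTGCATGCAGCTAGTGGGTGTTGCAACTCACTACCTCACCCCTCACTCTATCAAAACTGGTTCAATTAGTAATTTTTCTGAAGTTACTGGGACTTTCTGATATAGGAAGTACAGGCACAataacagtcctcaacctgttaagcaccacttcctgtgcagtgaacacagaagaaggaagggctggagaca
Ms4a6c: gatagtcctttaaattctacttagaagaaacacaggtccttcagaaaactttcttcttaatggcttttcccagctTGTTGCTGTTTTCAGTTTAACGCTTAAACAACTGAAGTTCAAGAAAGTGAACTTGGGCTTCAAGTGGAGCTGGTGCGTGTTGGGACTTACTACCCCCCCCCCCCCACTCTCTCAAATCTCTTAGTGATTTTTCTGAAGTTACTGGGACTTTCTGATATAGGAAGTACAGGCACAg

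In the Ms4a4b and Ms4a4c pair, 114 of 128 aligned columns were identical (89.1%), with 13 mismatches and 1 gap column. In the Ms4a6b and Ms4a6c pair, 152 of 182 columns were identical (83.5%), with 18 mismatches and 12 gap columns. So the promoters of Ms4a4b and Ms4a4c share most of the letters next to the start, although the transcripts were measured in different cells (T and NK cell-like against classical monocyte-like cells, below). Both strands of the whole windows, which run from 250 bases before to 50 after the start, were searched for 5 motifs. The octamer ATGCAAAT was found in 1 of the 9 member windows, that of Ms4a4c at base -170, and in 1.74% of all 32851 promoters of the table. The interferon response core AAANNGAAA was found in the second Ms4a7 window (base -63) and in the Ms4a6c window (base -166), and in 10.6% of all promoters. The PU.1 core GAGGAAGT (3.2% of all promoters), the C/EBP motif TTGCNNAA (10.8%) and the E-box CAGGTG (20.2%) were in none of the 9 windows, which says only that these letters are not there. The transcripts themselves were mostly distinct: of all 90-base stretches of the annotated transcripts, 2.23% of those of Ms4a4c and 0.7% of those of Ms4a4b also occurred in another Ms4a transcript, as did 0.727% for Ms4a2, 0.357% for Ms4a6c and 0.152% for Ms4a6b, and 0 for the other members. Reads from such shared stretches cannot be given to a single member.

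Of 88581 barcodes, 80474 cells had more than 500 genes and under 25% mitochondrial counts (unique molecular identifiers, UMIs), 14956 of them from control, 31956 from HFD+F+CCl4 and 33562 from WD+F+CCl4 mice. The kept cells of a mouse held 5305581 to 63878061 UMIs, and control mouse 2 was the shallowest library (median 992.5 UMIs per cell, against 2397 to 4278 in the other mice). Pairs of libraries shared 8 to 46 barcode sequences, and 1467 kept cells had a barcode that was also kept in another library. Cells were clustered without any Ms4a gene and named as cell type-like classes by other markers. The controls stood apart in this clustering: control B cell-like cells were mostly cluster 14 and those of NASH mice cluster 12, control classical monocyte-like cells were mostly cluster 27 and those of NASH mice cluster 1, control T and NK cell-like cells were mostly cluster 7, and 2 clusters of almost only control cells (17 and 18), led by hepatocyte transcripts such as Mug1 and Mup11, stayed unnamed. Patrolling monocyte-like cluster 8 and macrophage-like cluster 10, led by heat shock and early response genes such as Hspa1a and Fosb, held 2799 and 2724 cells of HFD+F+CCl4 mouse 1, 773 and 337 of WD+F+CCl4 mouse 3 and at most 74 of any other mouse. Macrophage-like cells numbered 32 and 8 in the control mice and 1108 to 3570 in the NASH mice, patrolling monocyte-like cells 32 and 13 against 1250 to 3224, and Kupffer cell-like cells 6 and 0 against 7 to 691. Levels are CPM, counts scaled to a sum of 1000000, of the UMIs summed over the cells of a class in a mouse, given where the mouse had at least 20 such cells. The CPM of hepatocyte-, cholangiocyte- and stellate cell-like cells together is given beside the levels as a reference class, since these cells are not known to make the immune members and any UMIs there show how much signal such cells carried in the same library. Its make-up differed between mice: control mouse 2 gave 32 cholangiocyte-like and 5 hepatocyte-like cells, and WD+F+CCl4 mouse 1 gave 2 and 355. The unnamed clusters 17 and 18 are not part of it. For control mouse 2, 3 UMIs in this class make 55.0 CPM, so its low levels there rest on few UMIs. Intervals on single values are exact 95% Poisson intervals and cover counting error only. What a count of 0 allows is given instead as the CPM of 3 UMIs, which lies below the upper end of such an interval.

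The 10 members fell into separate patterns (shown in the plot of levels by cell type). Among all UMIs of Ms4a1, 79.3% were in B cell-like cells, and 64.3% of those of Ms4a4b were in T and NK cell-like cells. Macrophage-like cells held 71.3% of the Ms4a7 UMIs, patrolling monocyte-like cells 37.1% of the Ms4a4a UMIs, and classical monocyte-like cells 44.9% of the Ms4a8a UMIs. Ms4a4c, Ms4a6b, Ms4a6c and Ms4a6d were spread over several myeloid classes, and none of the classes held more than 30.2% of any of them. UMIs in the kept cells ran from 177 for Ms4a2 to 230177 for Ms4a6c, whose transcript was counted in 44534 cells (55.3%).

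**Figure D1:**
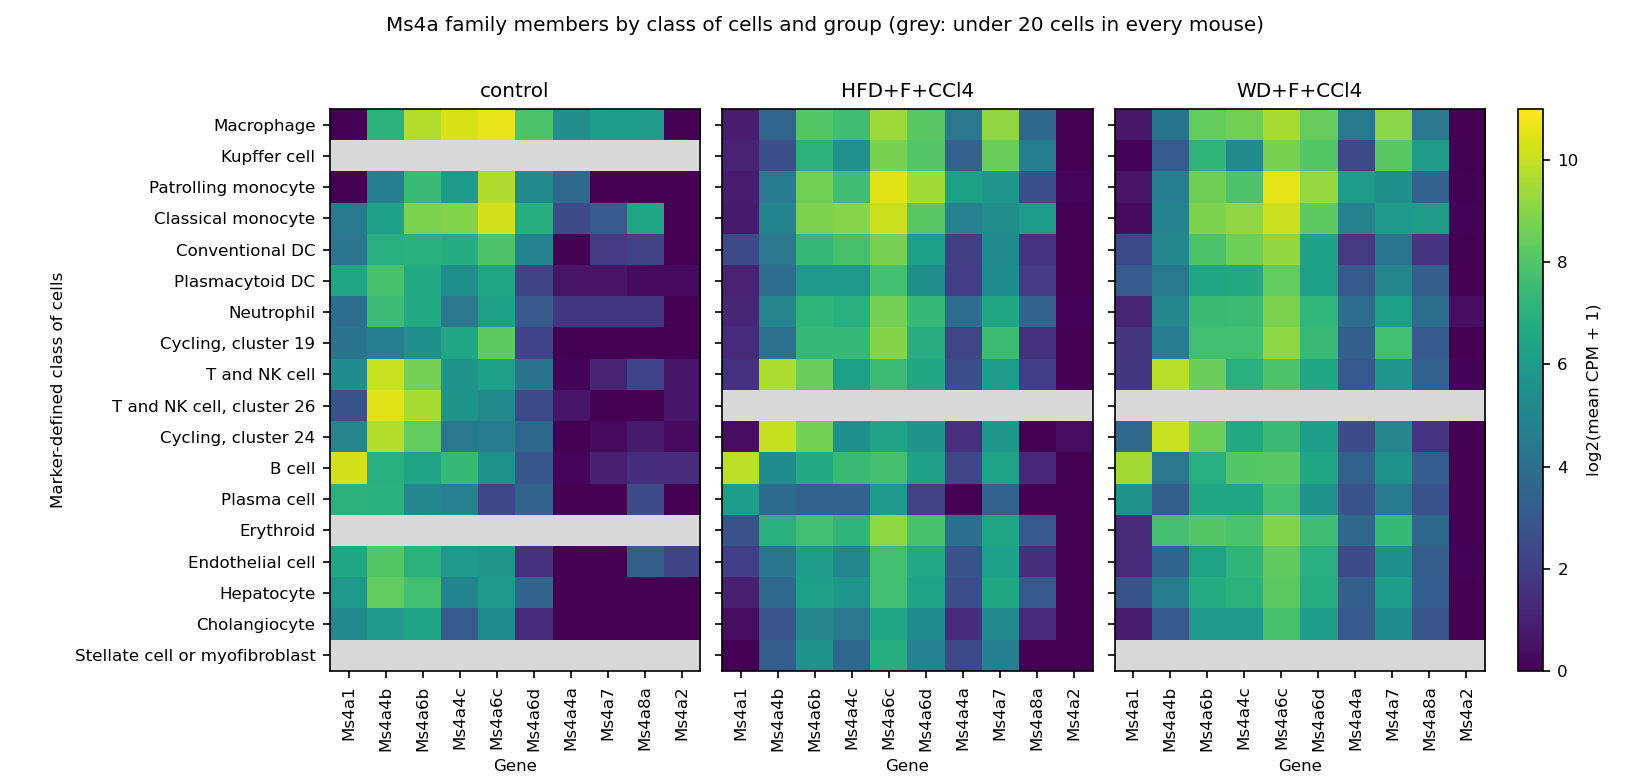
Colour shows log2(mean CPM + 1) over the mice of a group for each Ms4a member (columns) in each marker-defined class of cells (rows), 1 panel per group, with grey where no mouse of the group had 20 such cells. Ms4a1 stands out in B cells, Ms4a4b in T and NK cells and in cycling cluster 24, and Ms4a7 in the macrophages and Kupffer cells of both NASH models, and the control rows of macrophages and patrolling monocytes rest on control mouse 1.

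Ms4a1, the B cell surface protein CD20, was measured in B cell-like cells far above every other class. In these cells it stood at 1340 and 1110 CPM in control mice 1 and 2. The HFD+F+CCl4 mice had 758.5, 848 and 1296 CPM and the WD+F+CCl4 mice 720, 644 and 813 CPM. Of the 6 NASH mice, 5 lay below both controls, but HFD+F+CCl4 mouse 3 lay between them, and its value rested on 25 cells (95% interval 1040 to 1597). The groups therefore overlapped. The log2 fold change of NASH against control was -0.52 (SE 0.21). The 2 groups were compared across different clusters here: in cluster 12 alone control mouse 1 had 527 CPM, below every NASH mouse (644 to 1296 CPM), and control mouse 2 had 755 CPM, inside their range. Control cells of cluster 14 had 1375 and 1203 CPM. So the lower level in NASH mice was not seen within cluster 12. However, that cluster held only 54 of the 2279 B cell-like cells of control mouse 1 and 56 of the 196 of control mouse 2. These few cells may not stand for the control B cell-like cells as a whole.

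In NASH mice the mean Ms4a1 level was 847 ± 232 CPM in B cell-like cells (SD, n = 6), and the next ranked class, the cycling cells of cluster 24, had 6.68 ± 9.74 CPM, with no overlap. Classes with 20 cells in only 2 NASH mice, such as plasma cell-like cells, were not ranked. Over all mice, 177 plasma cell-like cells held 150 Ms4a1 UMIs, and the 721 cells of cluster 24 held 87. Control mice had more Ms4a1 outside the B cell-like class. The reference class held 42.1 and 91.7 CPM in the control mice and 0 to 11.1 CPM in the NASH mice, and T and NK cell-like cells held 11.5 and 68.8 CPM against 0.347 to 4.2 CPM. Cd79a, a chain of the B cell receptor and a B cell marker, showed the same order in the reference class (48.4 and 183 CPM against 1.17 to 12.7). B cell-like cells numbered 2279 and 196 in the control mice and 25 to 1417 in the NASH mice, and their part in these values was not tested. After thinning each cell to 1000 UMIs, an Ms4a1 UMI was found in 51.2 to 70.8% of the B cell-like cells of NASH mice and in 56.7 to 69.5% of those of control mice (66.2 to 88.0% and 66.3 to 87.9% unthinned). Hepatocyte-like cells, which should lack the gene, gave 0 to 1.04% in NASH mice and 3.45% in control mouse 1 (0 to 2.82% and 9.52% unthinned). The median depth was 1346.5 to 2147 UMIs per B cell-like cell and 1621.5 to 4546 per hepatocyte-like cell. Thinning left out the shallower cells, 2694 in the control group, 1552 in the HFD+F+CCl4 group and 1176 in the WD+F+CCl4 group.

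Ms4a2, the beta chain of the IgE receptor, was rare. It had 177 UMIs in 73 cells, 0.0907% of the kept cells, and never passed 7.62 CPM in a named class of at least 20 cells. Of these 73 cells, 45 were in cluster 28, an unnamed cluster of 406 cells led by the granule genes Elane and Mpo. The number of such cells was 21 and 8 in the control mice, 9, 4 and 4 in the HFD+F+CCl4 mice and 11, 5 and 11 in those of the WD+F+CCl4 model. Genes of basophils and mast cells were counted more often in the cells with an Ms4a2 UMI. Fcer1a, the alpha chain of the same receptor, had a UMI in 52.1% of them and in 0.0149% of the other 80401 cells. The protease gene Mcpt8 was found in 46.6% of them against 0.0784%, Cpa3 in 58.9% against 0.0498%, and Cd200r3 in 58.9% against 0.149%. Gata2, a transcription factor of this lineage, was found in 63.0% against 1.09%, and Hdc, the histamine-making enzyme, in 58.9% against 7.18%. At least 3 of these 6 genes were counted in 49 of the 73 cells, and 69 of all 80474 cells met that mark. By mouse these were 13 of 21 and 1 of 8 cells in the controls, 8 of 9, 3 of 4 and 2 of 4 in the HFD+F+CCl4 model and 10 of 11, 5 of 5 and 7 of 11 in the WD+F+CCl4 model. So most of the cells of control mouse 2, each with few UMIs (median 887.5), did not meet it. Fcer1g, the gamma chain that other receptors share, was found in 80.8% against 72.5%, so it did not set these cells apart to the same degree.

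Ms4a4b was the T cell member. In T and NK cell-like cells it stood at 1133 and 1002 CPM in the control mice, at 649, 926 and 811 CPM in the HFD+F+CCl4 mice and at 781, 759 and 1167 CPM in the WD+F+CCl4 mice. WD+F+CCl4 mouse 3 was the highest of all, so the groups overlapped, and the log2 fold change of NASH against control was -0.23 (SE 0.22). The class joins several clusters with different levels. Cluster 13, whose leading genes include the T cell coreceptor genes Cd8a and Cd8b1, had 1092 to 1524 CPM in the NASH mice, and cluster 23, led by Foxp3, a regulatory T cell factor, had 110 to 487 CPM. Cluster 11 had 624 to 739 CPM and cluster 21, the NK cell-like cluster, 505 to 936 CPM in the same mice. The ranges of clusters 13 and 23 did not overlap. Control cells were mostly cluster 7, with 1138 and 1008 CPM. Cluster 26, a control cluster kept apart from the class and led by Tcf7, Lef1 and Dapl1, had 1439 CPM in control mouse 1. The cycling cells of cluster 24 had 1063 ± 199 CPM and the T and NK cell-like class 849 ± 179 CPM (SD, n = 6 NASH mice), and the ranges overlapped. In the reference class the control mice had 185 and 36.7 CPM and the NASH mice 5.66 to 22.2 CPM. In the unnamed control clusters 17 and 18, led by hepatocyte transcripts, Ms4a4b had 331.5 to 807 CPM. After thinning, 42.8 to 64.4% of T and NK cell-like cells of NASH mice and 58.1 to 65.2% of those of control mice had an Ms4a4b UMI (63.5 to 82.6% and 63.6 to 90.4% unthinned, median depth 1130 to 2963 UMIs). Hepatocyte-like cells gave 0 to 4.26% in NASH mice and 27.6% in control mouse 1 (2.56 to 7.27% and 28.6% unthinned).

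In NASH mice the Ms4a4c and Ms4a6b transcripts were highest in classical monocyte-like cells, though the ranges overlapped for Ms4a4c with conventional DC-like and macrophage-like cells, and for Ms4a6b with patrolling monocyte-like cells, the cycling cells of cluster 24 and T and NK cell-like cells. Classical monocyte-like cells are the inflammatory monocytes that carry Ly6c2 and Ccr2. Ms4a4c had 463 and 544.5 CPM in control mice, 518, 423.5 and 588 CPM in HFD+F+CCl4 mice and 721, 462 and 527 CPM in WD+F+CCl4 mice. Ms4a6b had 433 and 463 CPM in control mice, 448, 404.5 and 501.5 CPM in HFD+F+CCl4 mice and 567, 386 and 442 CPM in WD+F+CCl4 mice. For both members both control values lay inside the range of the NASH mice, with log2 fold changes of 0.16 (SE 0.21) and 0.08 (SE 0.19). The reference class had 117.9 to 128.3 CPM of Ms4a6b in control mice and 27.15 to 146.6 CPM in NASH mice. Ms4a4c differed in conventional DC-like cells, where the controls had 106 and 116 CPM and every NASH mouse had more, from 172 to 546 CPM. In the reference class Ms4a4c had 25.3 to 36.7 CPM in control mice and 10.5 to 185 CPM in NASH mice. The conventional DC-like class is cluster 4, whose leading genes include Cd209a as well as Xcr1 and Clec9a, markers of different DC types. The mix of DC types in each group was not tested. Ms4a6b was also a T cell transcript: T and NK cell-like cells had 482 and 338.5 CPM in control mice and 302 to 397 CPM in NASH mice. Within that class the NK cell-like cluster 21 had 124 to 179 CPM in NASH mice, below the 443.5 to 601 CPM of cluster 13, and the ranges did not overlap. Ms4a4c was low in the same class, at 28.9 and 73.4 CPM in control mice and 58.0 to 175 CPM in NASH mice.

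WD+F+CCl4 mouse 1 stood out for Ms4a4c. It was the highest of the NASH mice in classical monocyte-like (721 CPM), conventional DC-like (546), macrophage-like (593), patrolling monocyte-like (337), neutrophil-like (291), B cell-like (352), plasmacytoid DC-like (171) and T and NK cell-like cells (175). It was also the highest in the reference class, with 185 CPM against 10.5 to 113 CPM in the other NASH mice. Whether these values share a source was not tested.

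**Figure D2:**
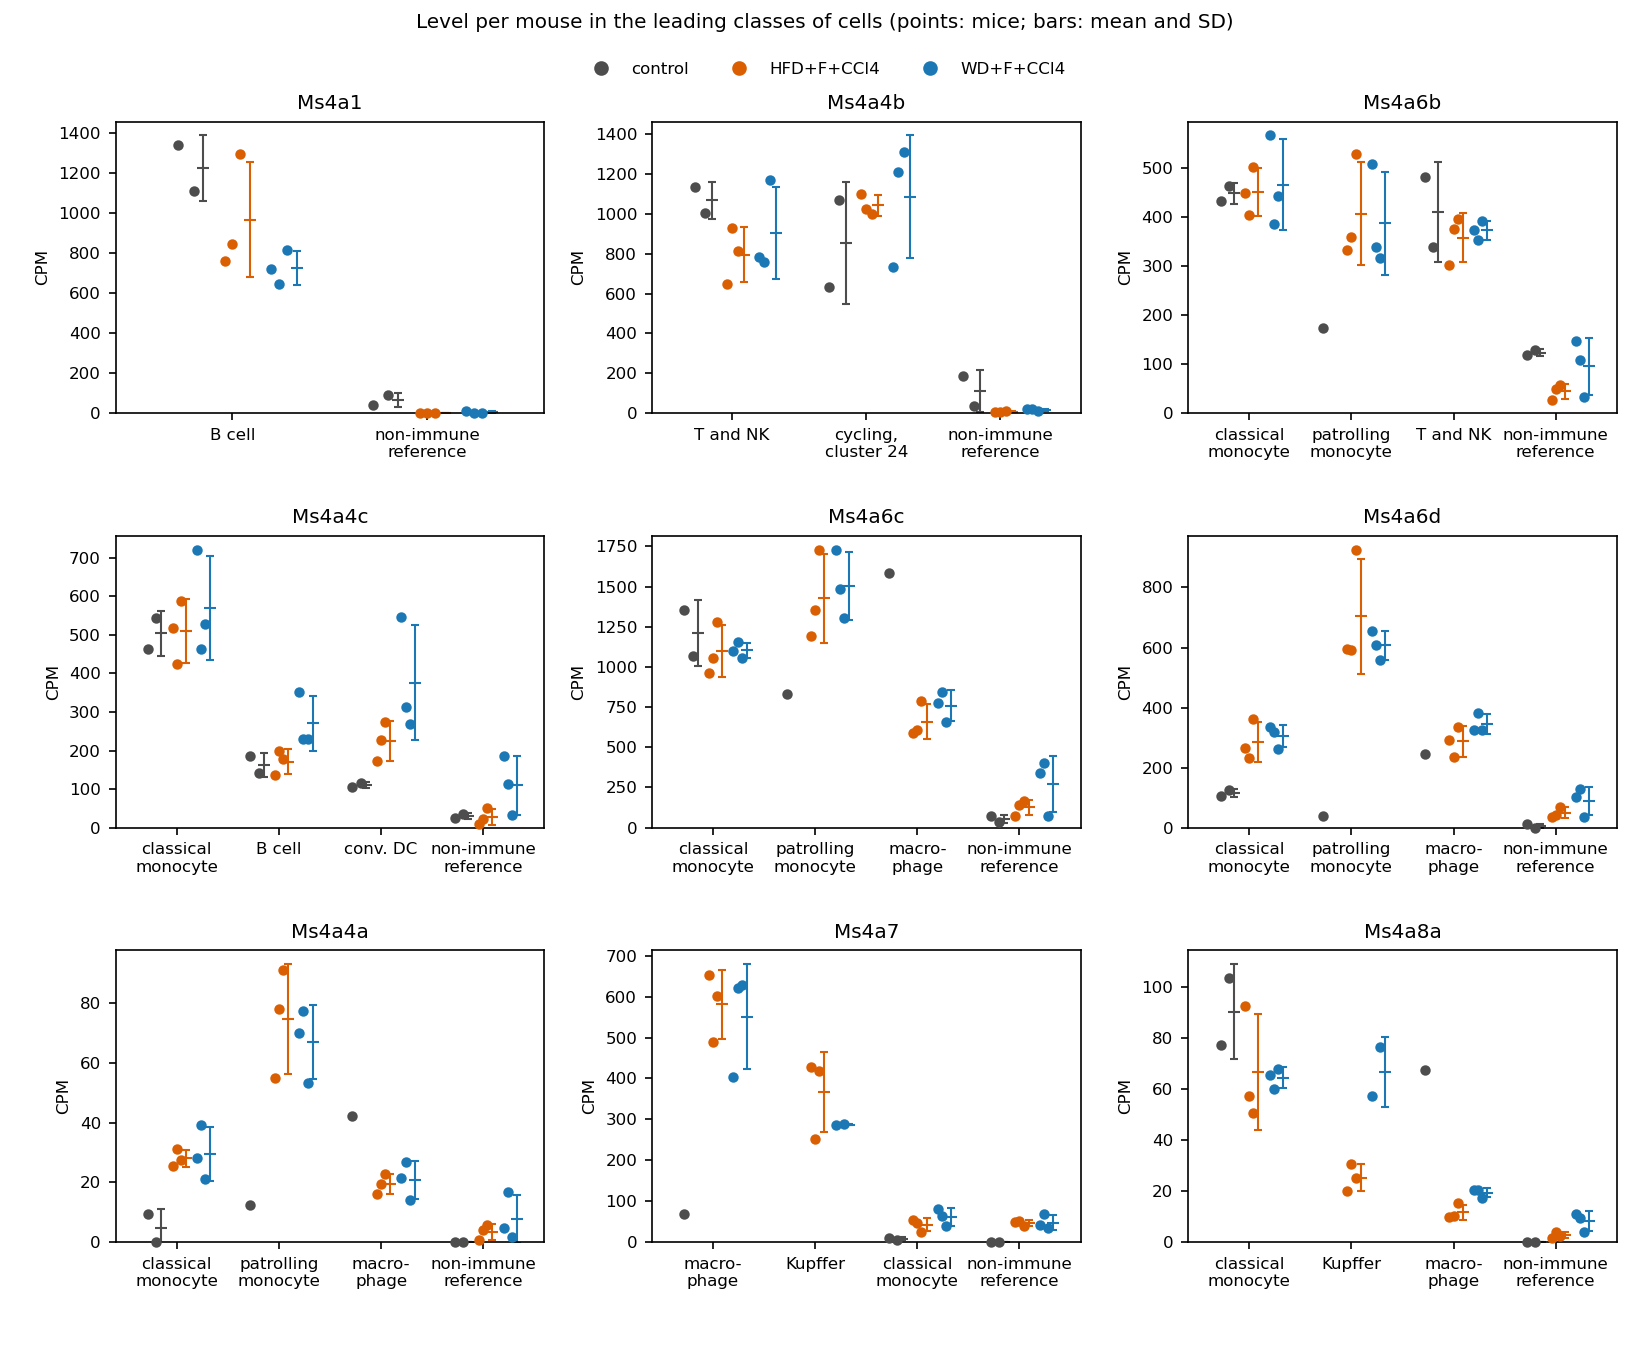
CPM of 9 members (1 panel each) in their leading classes of cells and in the reference class of hepatocytes, cholangiocytes and stellate cells (x axis), with 1 point per mouse, coloured by group, and the group mean and SD beside the points where 2 or more mice had 20 cells. The groups overlap for Ms4a1 in B cells and for Ms4a4c, Ms4a6b and Ms4a6c in classical monocytes, whereas all 6 NASH mice lie above both controls for Ms4a6d, Ms4a4a and Ms4a7 in classical monocytes.

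Ms4a6c had its highest levels in patrolling and classical monocyte-like cells. Classical monocyte-like cells had 1355 and 1067 CPM in control mice, 960, 1055 and 1280 CPM in HFD+F+CCl4 mice and 1099, 1152 and 1056 CPM in WD+F+CCl4 mice. The groups overlapped, with a log2 fold change of -0.12 (SE 0.20) that was 0.30 without control mouse 1 and -0.36 without control mouse 2. Patrolling monocyte-like cells, the Cd300e- and Treml4-bearing monocytes that patrol vessels, had 1193, 1354 and 1730 CPM in HFD+F+CCl4 mice and 1728, 1482 and 1305 CPM in WD+F+CCl4 mice. The 32 such cells of control mouse 1 had 833 CPM (interval 645 to 1057), below every NASH mouse. Of these 32 cells 30 were in cluster 5 and 2 in cluster 3, so the whole class compared different clusters. Within cluster 5 control mouse 1 had 861 CPM (interval 665 to 1098) and the NASH mice 1057 to 1590 CPM. In NASH mice the order was patrolling monocyte-like (1465 ± 224 CPM), classical monocyte-like (1101 ± 108) and macrophage-like cells (709 ± 106, SD, n = 6 for each). The patrolling and classical classes overlapped, and the classical and macrophage-like classes did not. The 32 macrophage-like cells of control mouse 1 had 1584 CPM from 188 UMIs, above every NASH mouse, and their Ms4a4c was also higher, at 1289 CPM against 143 to 593 CPM. After thinning, 65.1 to 77.3% of patrolling monocyte-like cells of NASH mice had an Ms4a6c UMI (82.1 to 92.6% unthinned), against 7.75 to 25% of hepatocyte-like cells (17.0 to 30.3% unthinned). Median depths were 2003 to 2845.5 and 1982 to 4546 UMIs. The reference class held 73.7 and 36.7 CPM in the control mice and 71.3 to 402 CPM in the NASH mice.

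Ms4a6d lay higher in the monocytes of NASH mice. In classical monocyte-like cells it had 106 and 125 CPM in control mice, 265, 233 and 361.5 CPM in HFD+F+CCl4 mice and 334.5, 318 and 263 CPM in WD+F+CCl4 mice. All 6 NASH mice lay above both controls, with a log2 fold change of 1.42 (SE 0.24). The clusters differed as well: control cells of cluster 27 had 102 and 96.9 CPM, whereas the few control mouse 2 cells of cluster 1 had 277 CPM from 8 UMIs (interval 120 to 546), inside the range of the NASH mice in cluster 1 (234 to 361.5 CPM). After thinning, 18.4 to 27.6% of these cells in NASH mice and 7.78 to 10.9% in control mice had an Ms4a6d UMI, and 2.11 to 11.5% of hepatocyte-like cells of NASH mice did (unthinned, 52.7 to 78.9%, 11 to 28.6% and 10.5 to 21.4%, at median depths of 4337 to 6623, 880.5 to 4489 and 1982 to 4546 UMIs). Patrolling monocyte-like cells were the highest class, with 595, 592 and 926 CPM in HFD+F+CCl4 mice and 655, 607 and 558.5 CPM in WD+F+CCl4 mice, all above every other named class of the NASH mice. Among the clusters of this class, cluster 3 had 738.5 to 1032 CPM and cluster 5 had 387 to 670 CPM in the NASH mice, without overlap. Cluster 8 had 343 to 735 CPM in the 4 NASH mice with enough cells, and it held 2799 of the 3004 patrolling monocyte-like cells of HFD+F+CCl4 mouse 1. Control mouse 1 had 37.3 CPM in the whole class, from 3 UMIs (interval 7.69 to 109), all of them in cluster 5, where it had 39.75 CPM (interval 8.20 to 116) beside the NASH range just given. The reference class had 10.5 and 0 CPM in control mice (a count of 0 in control mouse 2 allows up to 55.0 CPM) and 36.5 to 128 CPM in NASH mice.

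Ms4a4a, whose human counterpart MS4A4A marks tissue macrophages, had low levels here. In patrolling monocyte-like cells of NASH mice it had 54.9, 78.1 and 91.2 CPM (HFD+F+CCl4) and 70.2, 77.6 and 53.3 CPM (WD+F+CCl4), above the 21.2 to 39.4 CPM of classical monocyte-like and the 14.2 to 26.95 CPM of macrophage-like cells in these mice. So its highest class was a monocyte class and not the macrophage-like cells. In classical monocyte-like cells the controls had 9.26 and 0 CPM, where the 0 of control mouse 2 allows up to 16.3 CPM, and every NASH mouse was higher. The log2 fold change was 1.81 (SE 0.45). It rested on control mouse 1, since without that mouse the only control was at 0. The reference class had 0.566 to 16.7 CPM of Ms4a4a in NASH mice, which overlapped the macrophage-like values. It had 0 CPM in both controls, where a count of 0 allows up to 6.32 and 55.0 CPM. The part of these reference values in the difference was not tested.

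Ms4a7, a member known from resident and inflammatory macrophages, was concentrated in macrophage-like cells, whose naming markers include C1qa, C1qb, C1qc, Trem2 and Gpnmb. They had 653, 489 and 600.5 CPM in HFD+F+CCl4 mice and 403, 622 and 629 CPM in WD+F+CCl4 mice. The 32 macrophage-like cells of control mouse 1 had 67.4 CPM from 8 UMIs (interval 29.1 to 133), below every NASH mouse. In Kupffer cell-like cells, the resident macrophages with Clec4f and Vsig4, the level was 428, 253 and 418.5 CPM in HFD+F+CCl4 mice and 285.5 and 288 CPM in WD+F+CCl4 mice 2 and 3. These 2 classes overlapped in the NASH mice (566 ± 98.4 CPM, n = 6, and 335 ± 82.0 CPM, SD, n = 5), and no control mouse had 20 Kupffer cell-like cells. After thinning, 28.8 to 38.6% of macrophage-like cells of NASH mice had an Ms4a7 UMI (68.2 to 76.1% unthinned, median depth 5206.5 to 6705 UMIs), against 2.42 to 10.7% of their hepatocyte-like cells (7.55 to 15.4% unthinned).

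Over all kept cells, Ms4a7 had 1.76 and 1.13 CPM in the control mice, 354, 217 and 126 CPM in the HFD+F+CCl4 mice and 121, 190 and 264 CPM in the WD+F+CCl4 mice. Every NASH mouse was far above both controls. In such a sum, fewer cells of a type and less RNA per cell cannot be told apart, and macrophage-like cells were 1108 or more in each NASH mouse and at most 32 in a control mouse. Classical monocyte-like cells had 10.5 and 5.45 CPM in control mice and 24.4 to 81.1 CPM in NASH mice (log2 fold change 2.29, SE 0.53, and 3.43 without control mouse 1), without overlap. The NASH values lay near those of the reference class, which had 33.9 to 67.3 CPM in the same mice and 0 in both controls, where a count of 0 allows up to 6.32 and 55.0 CPM. T and NK cell-like cells, with 0.757 and 1.53 CPM in control mice and 29.6 to 105 CPM in NASH mice, had levels of the same order as the reference class. Its part in these values was not tested.

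Ms4a8a lay higher in WD+F+CCl4 than in HFD+F+CCl4 mice in several classes. In NASH mice its highest class was classical monocyte-like cells, which overlapped with Kupffer cell-like cells. Classical monocyte-like cells had 77.2 and 103.5 CPM in control mice, 92.7, 57.1 and 50.4 CPM in HFD+F+CCl4 mice and 65.4, 60.1 and 67.9 CPM in WD+F+CCl4 mice. HFD+F+CCl4 mouse 1 lay between the controls and the other NASH mice lay below them, with a log2 fold change of -0.39 (SE 0.21). In Kupffer cell-like cells the HFD+F+CCl4 mice had 20.05, 30.7 and 24.99 CPM and WD+F+CCl4 mice 2 and 3 had 57.1 and 76.4 CPM, without overlap. Macrophage-like cells had 9.73, 10.0 and 15.2 CPM in the HFD+F+CCl4 mice and 20.4, 20.5 and 17.2 CPM in the WD+F+CCl4 mice, also without overlap. T and NK cell-like cells had 2.42, 3.15 and 3.82 CPM against 9.38, 11.5 and 9.31 CPM (log2 difference of WD+F+CCl4 against HFD+F+CCl4 1.73, SE 0.38). All kept cells had 9.62, 9.77 and 11.3 CPM against 29.5, 23.8 and 22.5 CPM. That sum also depends on how many cells of each class a mouse gave. Classical monocyte-like cells held 44.9% of the Ms4a8a UMIs. They numbered 226 to 720 per HFD+F+CCl4 mouse, whereas each WD+F+CCl4 mouse gave 991 to 2445. Cell numbers and level per cell therefore cannot be separated in the sum over all kept cells. The higher level in WD+F+CCl4 mice was not seen in classical monocyte-like cells (log2 difference 0.02, SE 0.18) and was in part seen in the reference class, with 1.70, 4.00 and 2.33 CPM against 11.1, 9.52 and 3.86 CPM. This pattern was noticed after the values were seen, and its cause was not tested.

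**Figure D3:**
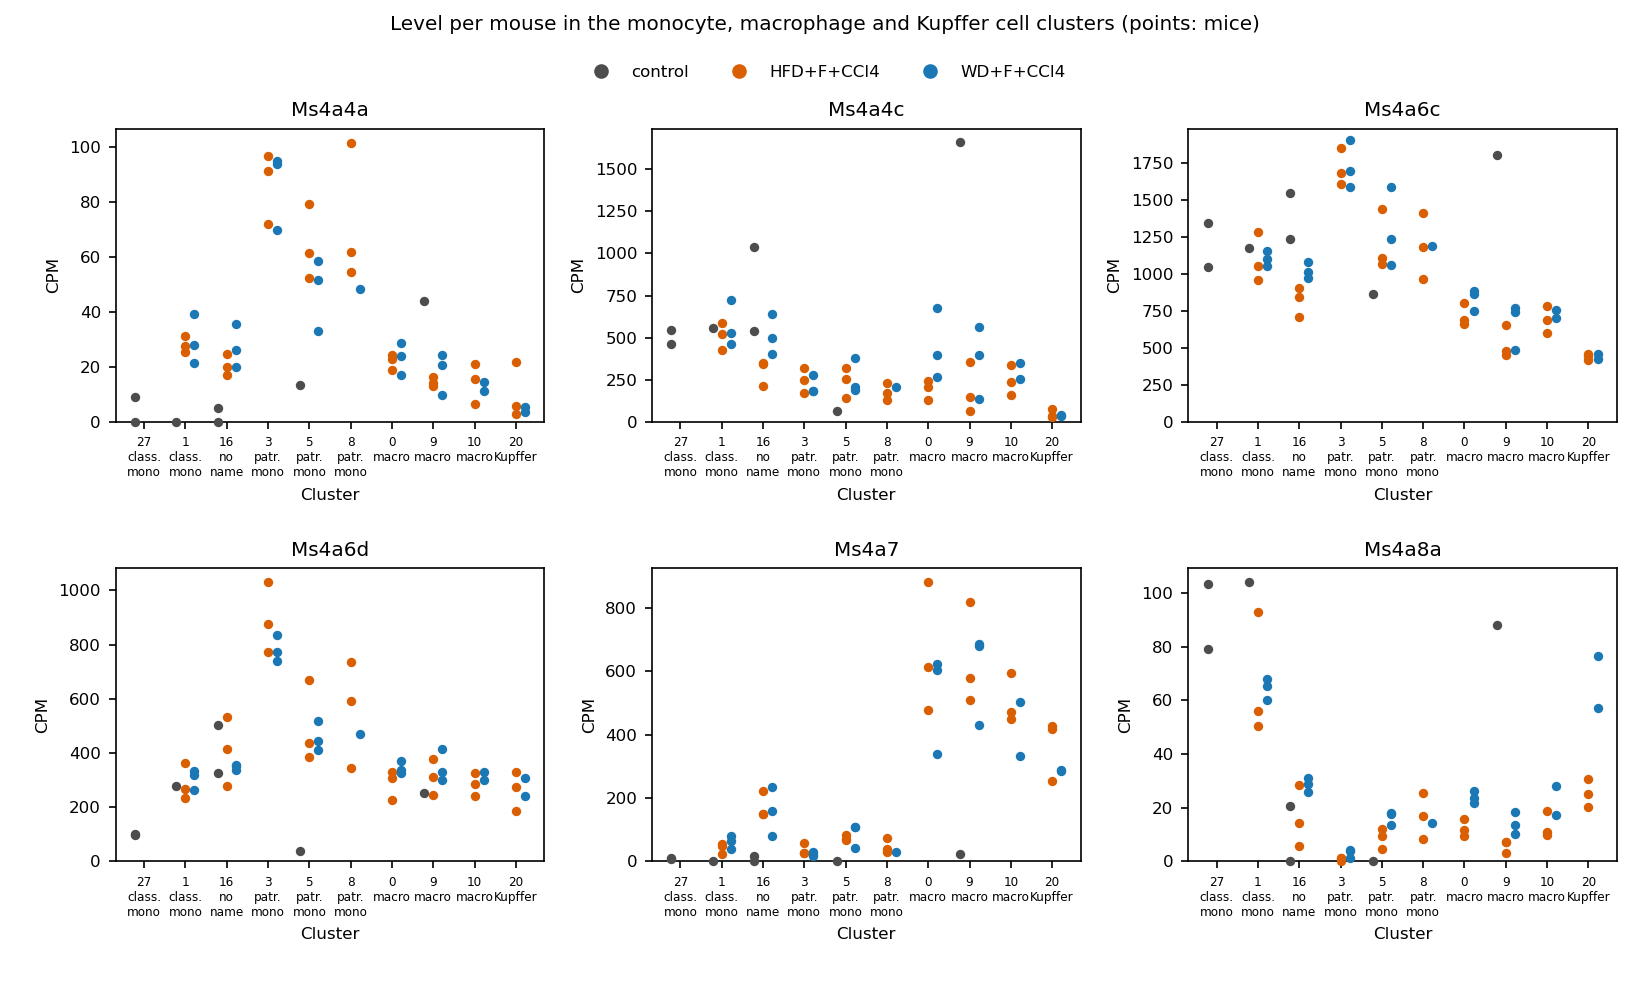
CPM of 6 myeloid members (1 panel each) in the monocyte, macrophage and Kupffer cell clusters and the unnamed cluster 16 (x axis), 1 point per mouse with at least 20 cells, coloured by group. In NASH mice, Ms4a6c and Ms4a6d are highest in patrolling monocyte cluster 3, Ms4a7 in macrophage clusters 0, 9 and 10, and Ms4a8a in classical monocyte cluster 1 and, in WD+F+CCl4 mice, in Kupffer cell cluster 20.

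Taking the 7 classes with enough cells in both control mice, members and classes made 56 combinations that passed the filter on low counts, and in 34 of them the 6 NASH mice (fewer where a mouse had under 20 cells) lay all above or all below both controls, 21 above and 13 below. The rule used this contrast, so nothing is read from these counts. In B cell-like cells 3 of 7 members did not overlap, beside 20.1% of all genes tested there. In cholangiocyte-like cells it was 5 of 7 (26.5%), in classical monocyte-like cells 5 of 9 (32.6%) and in conventional DC-like cells 6 of 8 (29.2%). In endothelial cell-like cells it was 6 of 8 (26%), in plasmacytoid DC-like cells 4 of 8 (17.8%) and in T and NK cell-like cells 5 of 9 (30%). Ms4a6d lay above the controls in all 7 classes and Ms4a7 in 6, all but B cell-like cells. Ms4a1 lay below in 6, all but B cell-like cells, and Ms4a4b in 6, all but T and NK cell-like cells. In the reference class of the same mice, which includes the cholangiocyte-like class, the directions were the same. There Ms4a6d and Ms4a7 were higher and Ms4a1 and Ms4a4b lower in the NASH mice, as given above. The lower Ms4a1 and Ms4a4b were thus counted outside the classes in which these genes are highest.

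**Figure D4:**
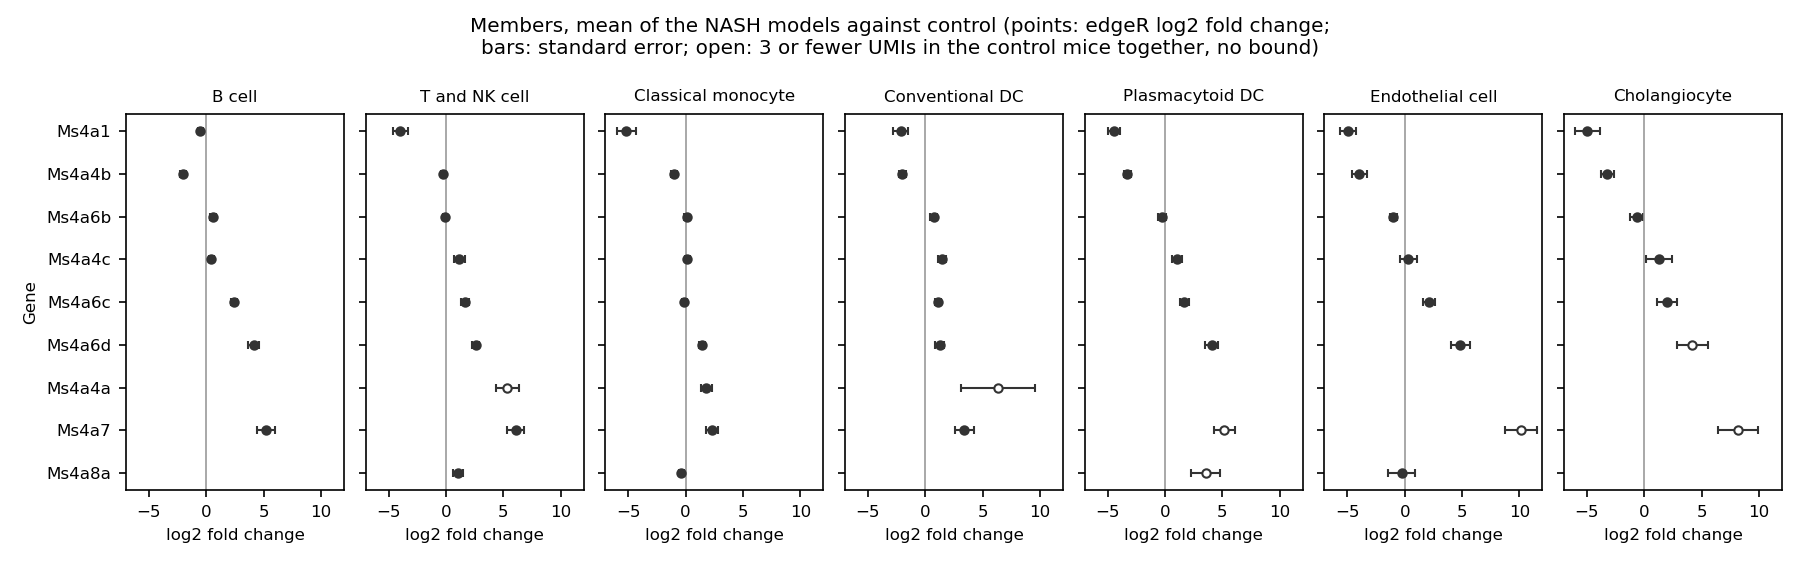
Points give the edgeR log2 fold change of the NASH models against control (x axis) with its standard error (bars) for each member (y axis) in the 7 classes tested, and open points mark members with 3 or fewer UMIs in the control mice together, whose fold is no bound. Ms4a1 and Ms4a4b lie left of 0 in most classes and Ms4a6d and Ms4a7 right of 0, and Ms4a6b, Ms4a4c and Ms4a6c lie near 0 in classical monocytes.

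The genes whose level was most like that of each member were found over 114 sums of a class in a mouse, among 17157 genes, by Pearson's r of log2(CPM + 1). These sums share libraries and depth, several genes below named the classes, and r is a description. For Ms4a1 they included Cd79a (0.934), the B cell receptor chain, and Fcer2a (0.908), a low-affinity IgE receptor. For Ms4a4b they were Lat (0.898), an adaptor of the T cell receptor, Bcl11b (0.878) and Ctsw (0.877).

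Of the myeloid members, Ms4a7 was most like Trem2 (0.951), a lipid-sensing receptor, C1qb (0.95), a complement chain, and C3ar1 (0.949), a complement receptor. Ms4a6d was most like Pla2g7 (0.896), Clec4a1 (0.887) and Csf1r (0.88), the receptor of the macrophage growth factor, and Ms4a6c was most like Pid1 (0.912), Cd300c2 (0.899) and Fcer1g (0.889). Ms4a4a was most like Fpr2 (0.859), a formyl peptide receptor, Gngt2 (0.856) and again Pla2g7 (0.835). The r values were lower for Ms4a4c (Irf5 0.797, Ptpro 0.764, Ccr2 0.759), Ms4a6b (Lcp2 0.793, Epsti1 0.748, Bin2 0.746) and Ms4a8a (Lyz2 0.805, Atp6v1b2 0.751, Ifi204 0.739). Ms4a2 stayed below 10 CPM in all sums and was left out. Between members, Ms4a4a and Ms4a6d had the highest r (0.808), then Ms4a6d and Ms4a7 (0.783), and Ms4a1 and Ms4a6d had the lowest (-0.551).

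The rule did not use the 25 related genes, and these were tested. They are receptors, kinases, transcription factors and relatives that work with Ms4a proteins or mark the same cells. However, the list was chosen with earlier results of these data known. Some of its genes, such as Trem2, Cd79a and Cd79b, also named the classes. So nothing is read from the share of the list that passed. Over the 7 classes 155 tests were made with edgeR's quasi-likelihood test, adjusted by Benjamini-Hochberg over all genes of a class, and 76 passed an adjusted p of 0.05 for NASH against control, 45 higher and 31 lower. They were 11 of 24 in B cell-like cells (11.3% of all genes passed there), 8 of 21 in classical monocyte-like cells (9.24%), 16 of 21 in conventional DC-like cells (9.04%), 11 of 23 in endothelial cell-like cells (3.45%), 14 of 24 in plasmacytoid DC-like cells (7.52%) and 16 of 24 in T and NK cell-like cells (13.6%). In cholangiocyte-like cells edgeR called 0 of 18 (0.784% of all genes, with 1172 genes at an unadjusted p under 0.05), and DESeq2 called 3. Without control mouse 1 the total fell to 39 calls and without control mouse 2 to 50, and 30 of the 76 calls held under every alternative in which the gene was tested in that class. Without control mouse 1 the calls fell to 7 in B cell-like, 5 in classical monocyte-like, 6 in conventional DC-like, 3 in endothelial cell-like and 7 in plasmacytoid DC-like cells. Without control mouse 2 they fell to 6 in conventional DC-like, 5 in endothelial cell-like and 9 in T and NK cell-like cells. In cholangiocyte-like cells 1 to 5 calls appeared without HFD+F+CCl4 mouse 3 (1), WD+F+CCl4 mouse 2 (2) or WD+F+CCl4 mouse 3 (5). Leaving out a control leaves 1 control mouse, which is then assumed to vary like the NASH mice.

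Of the 9 genes of the B cell receptor complex and B cell regulation, most of those that passed were lower in NASH mice outside the B cell-like class. Cd79a, Cd79b and the transcription factor Ebf1 were each lower in 5 classes and in none higher. Pax5 and Pou2af1 were lower in 3 classes each and Cd81 in 1, Pou2f2 was higher in 2, and Cr2 passed in none of 4. For Cd79a in T and NK cell-like cells the control mice had 29.4 and 123 CPM and the NASH mice 1.735 to 8.4 CPM (log2 fold change -3.92, SE 0.52, adjusted p = 0.0027), without overlap. Within B cell-like cells the list had 0 higher and 1 lower of 9, which was Pax5, the B cell identity factor: 506 and 396 CPM in control mice against 221 to 330 CPM in NASH mice (log2 fold change -0.67, SE 0.20, adjusted p = 0.0349). This call was lost without 5 of the mice in turn, control mouse 1 among them, and under 3 other alternatives. It also compares different clusters, as for Ms4a1. Control cells were mostly cluster 14, whose leading genes include Pax5, and NASH cells mostly cluster 12. Cd79a did not pass there (2496 and 1585 CPM against 1393 to 2563 CPM, adjusted p = 0.594). The median log2 fold change of this list was -0.24 in B cell-like and -3.04 in T and NK cell-like cells. In the reference class Cd79a was higher in control mice than in NASH mice, as given above, and the part of this in these calls was not tested.

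Among the macrophage receptors linked with MS4A4A in human cells, Trem2 was higher in NASH mice in 6 of 7 classes. In classical monocyte-like cells it had 35.2 and 27.2 CPM in control mice and 140 to 288 CPM in NASH mice (log2 fold change 2.54, SE 0.33, adjusted p = 0.00135), a call that was lost without control mouse 1 (adjusted p = 0.0579). In T and NK cell-like cells it had 1.21 and 2.29 CPM against 32.3 to 131 CPM (log2 fold change 5.88, SE 0.66, adjusted p = 0.0016), beside 2.11 CPM (1 UMI) and 0 CPM (which allows up to 55.0) in the reference class of control mice 1 and 2 and 23.3 to 87.8 CPM in that of NASH mice. So Trem2, like Ms4a7, was counted in NASH mice in classes that are not macrophages. Clec7a, the fungal sugar receptor dectin-1, was higher in 3 classes, and Tyrobp, the adaptor of Trem2, in 2.

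Of the 6 myeloid transcription factors, Spi1 (PU.1) was higher in 6 of 7 classes, Cebpb in 5 and Cebpa in 1. Irf8, a DC and monocyte factor, was lower in 2. Cebpb, a factor of inflammatory myeloid genes, had 341 and 436 CPM in the classical monocyte-like cells of control mice and 901 to 1469 CPM in those of NASH mice (log2 fold change 1.58, SE 0.21, adjusted p = 0.00162), and this call held in all alternatives. In the reference class Cebpb had 73.3 to 75.8 CPM in control mice and 158 to 605 CPM in NASH mice. Spi1 had 18.3 to 21.1 CPM against 71.2 to 259.5 CPM there. For control mouse 2, 3 UMIs in this class make 55.0 CPM, so its Spi1 level rests on fewer than 3 UMIs. The reference class was chosen for the immune members and not for Cebpb, so its Cebpb level is not read as carried signal. The part of these reference values in the calls was not tested. Cebpb and Ms4a6d thus both lay higher in the classical monocyte-like cells of NASH mice. In this class control cells were mostly cluster 27 and NASH cells mostly cluster 1, so the Cebpb and Trem2 calls there compare different clusters. In conventional DC-like cells Irf8 had 1330 and 1506 CPM in control mice and 280 to 1066 CPM in NASH mice (log2 fold change -1.18, SE 0.28, adjusted p = 0.0237), a call that was lost without control mouse 1, control mouse 2 or WD+F+CCl4 mouse 1 and with cells of more than 1000 genes. This class joins different DC types, and their mix in each group was not tested. Klf4, a monocyte factor, passed in none of 7.

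Tmem176a and Tmem176b, membrane proteins related to the Ms4a family, were each higher in 5 classes. In conventional DC-like cells Tmem176b had 235 and 219 CPM in control mice and 413 to 708 CPM in NASH mice (log2 fold change 1.24, SE 0.20, adjusted p = 0.00366), and the call held in all alternatives. The members measured in these cells had a like order between the groups for Ms4a4c, Ms4a6c, Ms4a6d and Ms4a7, whose control values lay below every NASH mouse. The part of the mix of DC types in these values was not tested. The IgE receptor list had Fcer1g higher in 3 classes and the kinases Lyn and Syk in 1 each, while Fcer1a had too few counts to be tested in any class. Tnfrsf18 (GITR), a costimulatory receptor of T cells that Ms4a4b is reported to work with, did not pass in T and NK cell-like cells (163 and 104 CPM in control mice, 96.3 to 257 CPM in NASH mice, adjusted p = 0.622) and was lower in endothelial cell-like and plasmacytoid DC-like cells.

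Between the diet models, edgeR called 0 of the 155 related tests at an adjusted p of 0.05, and 19 had an unadjusted p under 0.05. DESeq2 also called 0. Over all genes, 0.186% passed in B cell-like cells, 0.00866% in classical monocyte-like cells and 0% in each of the other 5 classes. An unadjusted edgeR p under 0.05 was found for 125 of 10777 genes in endothelial cell-like cells, the lowest share. The highest share was 907 of 11091 in conventional DC-like cells. Leaving out WD+F+CCl4 mouse 3 gave 9 calls and leaving out HFD+F+CCl4 mouse 2 gave 1.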

How the data were processed

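Single liver cells of 8 mice (3 of each NASH model and 2 controls) were grouped by the submitters' labels. The authors deposited UMI counts per gene and cell, made with bcl2fastq 2.20 and Cell Ranger on the mm10 (GRCm38) genome according to the submitters' processing notes. Cells with more than 500 genes and under 25% mitochondrial counts were kept. They were clustered with scanpy 1.11.5 and leidenalg 0.10.2 (2000 variable genes without any Ms4a gene, 30 components, 20 neighbours, resolution 1.0), and clusters were named by a marker list. Doublets were kept, and leaving out the 7452 cells with the highest doublet scores was an alternative. Counts were summed per mouse and class (at least 20 cells) and scaled to CPM. Related genes were tested with edgeR 4.0.16 (the quasi-likelihood test after TMM scaling, where filterByExpr kept genes at a minimum count of 10, adjusted by Benjamini-Hochberg over all genes of a class, with a threshold of 0.05), with DESeq2 1.42.0 as an alternative. NASH means the average of both models. The fit was tested on simulated data. Members and lists were chosen with earlier results of these data known. Named are the members, the other Ms4a genes, 25 related genes and the 3 genes most like each member by Pearson's r. Totals per mouse, 5305581 to 63878061 UMIs, set the precision of a level. Some genes that this rule and the marker and gene lists hold are counted in the totals but not reported here by name.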

Additional observations from a re-analysis of the deposited data

How the results depend on the processing

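Of the 76 calls of related genes between NASH and control mice, 30 held under every alternative in which the gene was tested in that class. Without control replicate 1, 36 no longer passed and 1 was not tested, and 28 no longer passed without control replicate 2. Leaving out each mouse in turn gave 39 calls (without control replicate 1) to 85 (without WD+F+CCl4 replicate 3), with 50 without control replicate 2, and the cause was not tested. The other settings gave 54 calls (high doublet scores left out) to 104 (no filter beyond 1 count), with 83 by DESeq2 and 75 with no scaling beyond library size. Between the models the count was 0, and it was 9 with no filter beyond 1 count. Leaving out each mouse gave 0 to 9 (9 without WD+F+CCl4 replicate 3 and 1 without HFD+F+CCl4 replicate 2). Members without overlap numbered 34, and 29 to 42 under the alternatives. With the replicate block 70 calls were made between NASH and control mice and 0 between the models. Over 45 pairs of mice with the same number in 7 classes, the correlation of deviations was -0.298 to 0.151 (median -0.026, above 0.1 in 2). Deviations sum to 0 within a group of 2 or 3 mice, which limits these values. They gave no sign that mice of the same number belong together, so the block is not read as a pairing. Some pairs with different numbers were higher, such as HFD+F+CCl4 mouse 1 and WD+F+CCl4 mouse 3 (0.13 to 0.36). An alternative chosen after seeing the data, cluster 26 counted among the T and NK cells, left 76 calls and 34 members without overlap. The log2 fold change of Ms4a4a in classical monocyte-like cells came to 10.44 without control replicate 1, where the only control was at 0, and is no bound. Of 200 counts of related genes per class 25 moved by over 1.5 times, and of 136 member fold changes 10 moved by more than 1 SD of the log2 CPM of the NASH mice. Cell filters and clusterings were not tried for the contrast of the models. The median log2 fold change of all genes lay within 0.1 of 0 in each class with and without scaling. With 2 control mice, of which 1 was shallow, low levels in controls were measured with few UMIs.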

Other observations

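Of the 9 other Ms4a genes, Ms4a3, Ms4a14 and Ms4a4d had more than a few UMIs. Ms4a14 had 70.7% of its 1533 UMIs in macrophage-like cells, at 8.73 to 18.5 CPM in the NASH mice. The 0 in the 32 such cells of control mouse 1 allows up to 25.3 CPM, above these values, so no difference was detectable at this depth. Ms4a3, a gene of granulocyte and monocyte progenitors, had 79.3% of its 2389 UMIs in unnamed clusters, and Ms4a4d had 69.4% of its 460 UMIs in stellate cell-like cells, at 179 and 122 CPM in HFD+F+CCl4 mice 1 and 2. The others had 0 to 9 UMIs in all kept cells.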
